A study of Mus musculus with 7 samples.

Results

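The genes described here are 10 members of the mTORC1 pathway and of the inputs that report nutrients and stress to it: Mtor, Rptor, Rheb, Tsc1, Tsc2, Ddit4, Depdc5, Sesn1, Sesn2 and Sesn3. They were chosen by name and not by their values, and each was found once among the 23930 genes of the table. RNA was measured in Pax7-GFP+ cells sorted from the hind leg muscles of mice of a tamoxifen-inducible Pax7-GFP reporter on C57BL/6, in which a Pax7-driven Cre switches on a green protein. All mice, controls included, were induced with tamoxifen, which the study's methods place within the first part of the exposure, and from 12 weeks of age were kept for 4 weeks in normocapnia (NC, room air, 3 libraries) or hypercapnia (HC, air with raised CO2, 4 libraries) until 16 weeks of age. The study's methods also describe an injury of leg muscles by cardiotoxin before such cells were collected, which the labels do not mention. The methods and the name of the deposited table do not give the same interval before collection, so the time since injury is not settled here. The labels do not say whether a library came from 1 mouse or from a pool, so p-values measure the spread between these libraries.

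mTORC1 is a kinase complex on the lysosome that promotes protein synthesis and growth and restrains autophagy when nutrients and growth factors are present. Growth factors act through the TSC complex, which switches off the small GTPase Rheb, and amino acids act through the Rag GTPases, which the GATOR1 complex switches off and which draw mTORC1 to the lysosome. In muscle satellite cells, mTORC1 is known for the shift from deep quiescence to an alert state and for the start of division. The study treated hypercapnic mice with rapamycin, an inhibitor of mTORC1, and the comparison below asks whether transcripts of the complex and of its inputs differed between HC and NC cells.

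Library totals ran from 14527445 to 23388710 reads, so that 1 read was worth 0.0428 to 0.0688 RPM (reads scaled to a common library total). Markers of satellite cells were detected, with a summed level of 532.7 to 3182.8 RPM over 9 markers in NC and 744.2 to 1435.4 RPM in HC. Most of that sum came from Sdc4 in NC2 and NC3, at 780.9 and 441.3 RPM. Pax7 itself was at 268.3, 8.25 and 4.34 RPM in NC1 to NC3 and at 21.5, 20.1, 79.5 and 59.7 RPM in HC1 to HC4. Markers of macrophages (10 genes) were detected in every library, with a summed level of 11816 to 34731.5 RPM in NC and 19447.1 to 24049.3 RPM in HC, most of it from Lyz2. Among them only Adgre1 (F4/80) was called, higher in HC, at 109, 149 and 70.5 RPM in NC and 392.2, 429.1, 151.4 and 183.8 RPM in HC. The groups did not overlap, but HC3 and NC2 were close. Of the 10 macrophage markers 7 were higher in HC and 3 lower, the latter Csf1r (-0.14), Itgam (-0.12) and Lyz2 (-0.009). Of the complement genes among them, C1qb was at 158.5 to 1061 RPM and C1qa at 0 to 0.452 RPM. Endothelial markers (6 genes) summed to 76.7 to 209.6 RPM in NC and 45.6 to 468.6 RPM in HC, fibro-adipogenic markers (5) to 964.9 to 1717.9 and 832.5 to 2136.6 RPM, myofiber markers (6) to 238.7 to 4411.3 and 345.2 to 2094.2 RPM, neutrophil markers (6) to 64.8 to 216.2 and 78.1 to 288.5 RPM, and tissue dissociation genes (6) to 6517.1 to 7738.9 and 5426.1 to 6789.6 RPM. Of the 6 dissociation genes, 3 were higher and 3 lower in HC, and 1 was called. That was Atf3, higher at 383.5 to 830 RPM in NC and 966.9 to 1097 RPM in HC. Egr1 ran the other way, with a log2 fold change of -0.81, and was not called. The part of these markers in the results below was not tested. Lymphocyte markers (4) stayed at 2.6 RPM or less in sum, with Cd3e, Cd3g and Nkg7 each at 0 in at least 1 library. In bulk RNA of such a mixture, fewer cells of a type and less RNA per cell cannot be told apart. NC3 stood apart, with 16.63% of its reads on its 10 most abundant genes (8.36 to 12.13% in the others), the lowest satellite cell sum and the highest macrophage sum. NC1 stood apart the other way. It had the highest satellite cell sum (3182.8 RPM), the highest myofiber sum (4411.3 RPM) and the lowest macrophage sum (11816 RPM).

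None of the 10 transcripts passed the test between HC and NC. The ranges of NC and HC overlapped for all 10 genes, 0 passed p under 0.05 with a fold change above 1.5 (limma on log2(RPM + 1)), and 0 passed p under 0.05 alone. The same rule called 2.57% of all 23930 genes and 4.75% of the 12504 genes whose mean reached 1 RPM, and groups did not overlap for 7.72% of the latter, so that 0 of 10 is not far from what these rates give for a list of this size. Tests on whole reads with edgeR and DESeq2 also called 0 of the 10, with 0 at an unadjusted p under 0.05. The lowest p after Benjamini-Hochberg adjustment over all genes in limma was 0.915. Leaving out NC1 gave 1 call, Sesn1, and leaving out NC2 gave 1 call, Sesn2. Without those libraries the number of calls among all genes also rose, from 615 to 1990 (NC1) and to 1205 (NC2), and it fell to 385 without HC1 and to 376 without HC2.

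On the RPM scale 8 of the 10 were higher in HC and 2 lower, and their median log2 fold change was 0.13, where the median over all genes at 1 RPM or more was 0.16. This split changed with the scaling. Scaled by median of ratios, 6 genes were higher and 4 lower, with a median over all genes of 0.045, and quantile normalization gave the same split, with a median of -0.006. It was 3 higher and 7 lower in edgeR with a filter and in DESeq2. Rptor (lower in HC), Sesn1 and Sesn2 (both higher in HC) kept their sign in all 16 alternatives, although none of the 3 passed the test with all libraries.

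**Figure D1:**
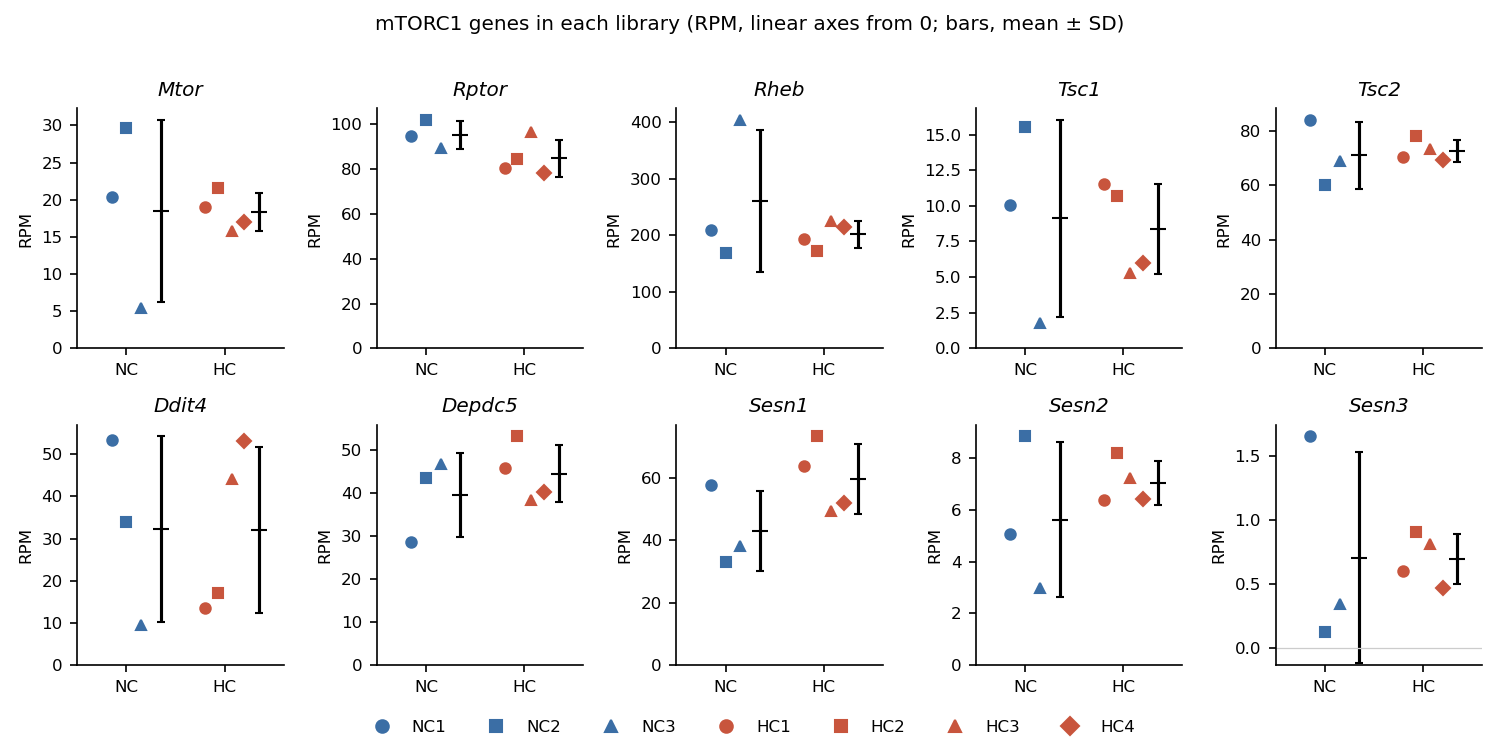
Level of each of the 10 genes in every library (RPM, linear axes from 0 except for Sesn3, whose SD bar reaches below 0), with NC in blue, HC in red and bars for mean ± SD. NC and HC points overlap in every panel, and the NC points spread more widely than the HC points in all panels but that of Rptor.

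Mtor encodes the kinase of the complex. It was at 20.4, 29.6 and 5.37 RPM in NC1, NC2 and NC3 and at 19.0, 21.6, 15.8 and 17.0 RPM in HC1 to HC4. The 4 HC libraries lay close together and inside the NC range, in which NC3 was far below the others. The means were nearly equal, at 18.5 ± 12.3 RPM in NC (SD, n = 3) and 18.4 ± 2.54 RPM in HC (SD, n = 4). The log2 fold change of HC over NC was 0.26 with a standard error of 0.56 (limma, adjusted p = 0.98), and its 95% interval ran from 0.456-fold to 3.13-fold. Without NC3 the log2 fold change turned to -0.41, with an interval of 0.52-fold to 1.08-fold (limma, unadjusted p = 0.0984). Every HC library was below NC2, and HC2 was above NC1.

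Rptor encodes Raptor, the scaffold that binds mTORC1 substrates and defines the complex. Its level was the steadiest in NC, at 94.7, 102.0 and 89.4 RPM, with 80.3, 84.4, 96.7 and 78.2 RPM in HC. Of the HC libraries only HC3 reached into the NC range. The log2 fold change was -0.17 (standard error 0.09, limma, adjusted p = 0.915), with a 95% interval of 0.764-fold to 1.04-fold. Leaving out HC3 brought the unadjusted p of Rptor under 0.05, with the fold change still below 1.5.

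Rheb is the GTPase that switches mTORC1 on at the lysosome. It was the only one of the 10 genes whose promoter window held the E-box letters CACGTG, the core bound by TFEB and other basic helix-loop-helix factors, and its stretch is shown for that reason. Both strands of the 250 bases before each RefSeq start (GRCm38.p6) were searched, in 11 windows for the 10 genes. The stretch below lies at chr5:24842415-24842494 on the minus strand, with the E-box, at position -96 from the start, in capitals.
Rheb: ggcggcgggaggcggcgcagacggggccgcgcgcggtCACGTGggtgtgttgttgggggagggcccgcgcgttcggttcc
Those letters stand in 6.02% of the 32851 mouse windows, so 1 match among 11 is no rarity, and a match of letters is not a bound site. The letters TGATGNAA (in 3.45% of windows, as bound by ATF4), GTAAACA (3.17%, FoxO) and TGACGTCA (1.55%, CREB) were in none of the 11 windows. For Mtor alone, the bases after the start were not found in an annotated transcript of the gene, so its window is less certain. The motifs were chosen with the expression values known.

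The level of Rheb was 208.8, 169.3 and 404.5 RPM in NC and 193.1, 172.8, 226.2 and 215.2 RPM in HC. All HC libraries lay between NC2 and NC3, and NC3 was the highest of the 7. For Rheb, the log2 fold change was -0.27 (standard error 0.32, limma, adjusted p = 0.915), with a 95% interval of 0.479-fold to 1.43-fold. Leaving out NC3 turned it to 0.09 and narrowed the interval to 0.81-fold to 1.41-fold.

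Tsc1 and Tsc2 encode hamartin and tuberin, the subunits of the complex that switches Rheb off. Tsc2 was at 84.0, 59.9 and 68.9 RPM in NC and at 70.3, 78.3, 73.2 and 69.1 RPM in HC, with every HC library inside the NC range. Its difference was among the best bounded, with a log2 fold change of 0.05 (standard error 0.12, limma, adjusted p = 0.999) and a 95% interval of 0.839-fold to 1.27-fold. Tsc1 was at 10.0, 15.5 and 1.79 RPM in NC and at 11.5, 10.7, 5.31 and 6.03 RPM in HC. NC3 was again the lowest of the 7, and within HC the libraries HC3 and HC4 were below HC1 and HC2, with 2.17-fold from highest to lowest. The log2 fold change of Tsc1 was 0.17 (standard error 0.68, limma, adjusted p = 1), with an interval of 0.346-fold to 3.65-fold, and without NC3 it was -0.59, with an interval of 0.322-fold to 1.37-fold.

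Ddit4 encodes REDD1, which activates the TSC complex under low oxygen, energy stress and glucocorticoids. It was at 53.3, 33.9 and 9.43 RPM in NC and at 13.5, 17.0, 44.2 and 53.2 RPM in HC, so that the spread within each group was larger than any difference between them. The means were 32.2 ± 22.01 RPM (SD, n = 3) and 32.0 ± 19.7 RPM (SD, n = 4). The 4 HC libraries formed a low pair (HC1 and HC2) and a high pair (HC3 and HC4), and the pairs also differed in the summed endothelial markers, at 57.4 and 45.6 RPM in the first against 468.6 and 355.7 RPM in the second. The macrophage sum ran the other way, at 24049.3 and 20661 RPM against 19447.1 and 19823.6 RPM. The sums of dissociation genes and of satellite cell, neutrophil, myofiber and fibro-adipogenic markers were lower in the first pair, like the endothelial one. Fibro-adipogenic markers were at 971.4 and 832.5 RPM against 1690 and 2136.6 RPM. Within that list Dcn followed this order (188.4 and 169.2 against 1050 and 1356 RPM), while Col3a1 ran against it (143.9 and 96.7 against 58.6 and 64.5 RPM), and the part of these markers in the level of Ddit4 was not tested. The log2 fold change was 0.06 (standard error 0.78, limma, adjusted p = 1), with a 95% interval of 0.272-fold to 4.02-fold, the widest of the 10. It was -0.62 without NC3 and 0.57 without NC1, and negative without HC3 or HC4 and on either other scaling of the libraries, so that no direction is given for Ddit4.

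Depdc5 encodes a subunit of GATOR1, the complex that inactivates the Rag GTPases when amino acids are scarce. It was at 28.5, 43.5 and 46.9 RPM in NC and at 46.0, 53.3, 38.5 and 40.3 RPM in HC. NC1 was the lowest of the 7, and the other NC libraries lay among the HC ones. Here the log2 fold change was 0.18 (standard error 0.21, limma, adjusted p = 0.915), with a 95% interval of 0.791-fold to 1.63-fold. Without NC1 it was -0.03, with an interval of 0.743-fold to 1.29-fold.

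The sestrins bind GATOR2 and restrain mTORC1, Sesn1 and Sesn2 as leucine sensors, and Sesn1 is also a target of p53 and of FoxO factors. RefSeq lists 2 starts for Sesn1, and the panel reads 1 amplicon for the gene, whose place the sources used here do not give, so transcripts from the starts cannot be told apart. Both are shown because the Sesn1 values below may belong to either. Each stretch ends at the base before its start, at chr10:41810454-41810573 and chr10:41887319-41887438 on the plus strand (GRCm38.p6), and capitals mark GGGCGG on either strand, the GC box bound by SP1, with overlapping matches run together.
Sesn1 start 1: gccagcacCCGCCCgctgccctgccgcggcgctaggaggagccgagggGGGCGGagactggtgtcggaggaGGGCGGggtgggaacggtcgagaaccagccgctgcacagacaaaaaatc
Sesn1 start 2: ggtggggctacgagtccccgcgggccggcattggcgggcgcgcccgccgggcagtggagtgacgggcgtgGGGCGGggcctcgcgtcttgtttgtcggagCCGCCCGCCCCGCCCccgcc
The letters are common, standing in 32.7% of all windows, and neither start held the E-box, ATF4-type, FoxO-type or CRE letters.

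Sesn1 had the smallest p of the 10. It was at 57.7, 33.0 and 38.3 RPM in NC and at 64.0, 73.4, 49.4 and 51.9 RPM in HC, with means of 43.02 ± 13 RPM (SD, n = 3) and 59.7 ± 11.2 RPM (SD, n = 4). HC1 and HC2 were above every NC library, while HC3 and HC4 were below NC1. For Sesn1, the log2 fold change was 0.48 (standard error 0.24, limma, unadjusted p = 0.0929, adjusted p = 0.915), with a 95% interval of 0.925-fold to 2.12-fold. Leaving out NC1 gave 0.71 and a call (limma, unadjusted p = 0.0178, adjusted p = 0.304).

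Sesn2, which ATF4 induces when amino acids are short, was at 5.09, 8.85 and 2.96 RPM in NC and at 6.38, 8.19, 7.25 and 6.43 RPM in HC. All HC libraries lay between NC1 and NC2, and NC3 was the lowest of the 7. For Sesn2, the log2 fold change was 0.37 (standard error 0.31, limma, adjusted p = 0.915), with a 95% interval of 0.753-fold to 2.23-fold. It was 0.71 and called without NC2 (limma, unadjusted p = 0.0226, adjusted p = 0.542), and 0.05 without NC3. Sesn3, a FoxO target, was scarcely detected, at 37, 3 and 5 reads in NC and 14, 18, 13 and 7 reads in HC, or 0.128 to 1.65 RPM. These values rest on few reads, and its log2 fold change was 0.09 (standard error 0.31, limma, adjusted p = 1), with 0.08 in edgeR with a filter and 0.47 with 0.1 RPM added in place of 1. Without NC1, which held the most reads, it was 0.46 (limma, unadjusted p = 0.0263), and below 1.5-fold.

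**Figure D2:**
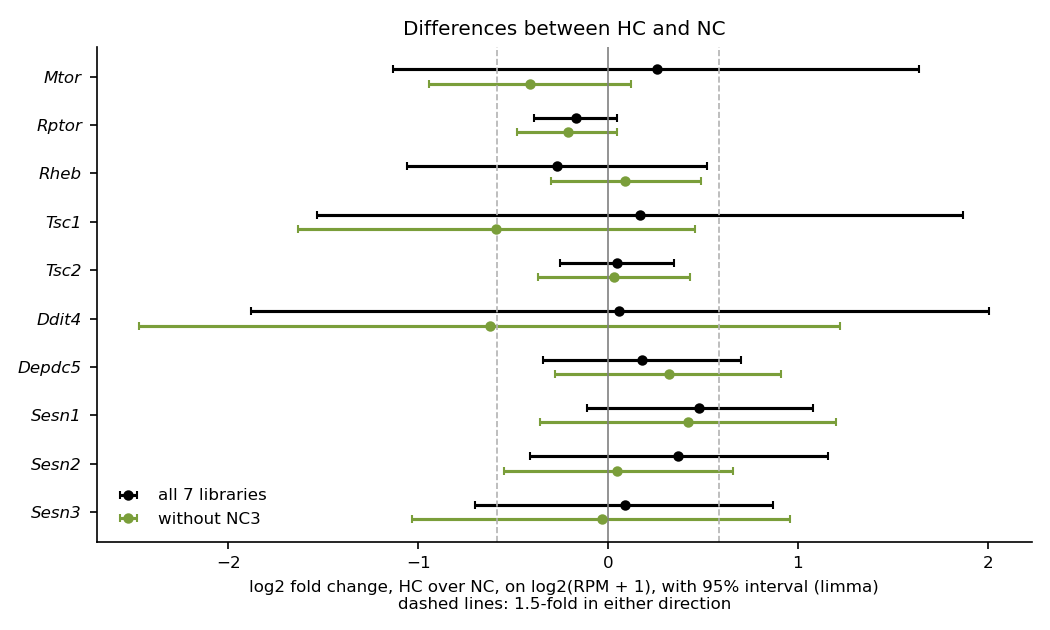
Log2 fold change of HC over NC for each gene on log2(RPM + 1), with its 95% interval from limma, for all 7 libraries (black) and without NC3 (green), and dashed lines at 1.5-fold. Every interval includes 0, only those of Rptor and Tsc2 lie inside the dashed lines with all libraries, and the points of Mtor, Tsc1, Ddit4, Rheb and Sesn3 cross 0 when NC3 is left out.

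The intervals tell apart genes with little room for a difference from genes about which the libraries say little. For 2 of the 10, Rptor and Tsc2, the whole 95% interval lay within 1.5-fold in either direction. That number was 0 when genes below a mean of 1 RPM were left out or the libraries were scaled by median of ratios, under which the limma standard errors were larger (0.25 for Rptor and 0.26 for Tsc2 with the filter). At the other end, the fold change whose interval would have left 1 was 3.85 for Ddit4, 3.25 for Tsc1 and 2.62 for Mtor, against 1.16 for Rptor, 1.23 for Tsc2, 1.43 for Depdc5 and 1.51 for Sesn1. Sesn2, Sesn3 and Rheb lay between, at 1.72, 1.72 and 1.73. Without NC3 it was smaller for 5 genes, at 1.44 for Mtor, 2.06 for Tsc1, 3.59 for Ddit4, 1.31 for Rheb and 1.52 for Sesn2. It was larger for the other 5, at 1.72 for Sesn1, 1.99 for Sesn3, 1.51 for Depdc5, 1.32 for Tsc2 and 1.2 for Rptor.

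Most of the spread was within NC. The highest NC value was 12.9 times the lowest for Sesn3, 8.67 times for Tsc1, 5.66 times for Ddit4 and 5.52 times for Mtor, and 1.14 times for Rptor. Within HC the corresponding values were 1.91, 2.17, 3.94 and 1.37 times, and 1.24 times for Rptor. The SD of log2(RPM + 1) was larger in NC than in HC for 9 of the 10 genes, and for 81.1% of all genes at 1 RPM or more. NC3 was the lowest of the 7 libraries for 4 genes (Mtor, Tsc1, Sesn2 and Ddit4) and the highest for 1 (Rheb). It held 1 of these extremes for 50% of the 10 genes and for 64.3% of all genes at 1 RPM or more. NC2 was at an extreme for 80% of the 10, the lowest for Rheb, Tsc2, Sesn1 and Sesn3 and the highest for Mtor, Rptor, Tsc1 and Sesn2, against 31.4% of all genes. HC1 and HC3 were at an extreme for 0 of the 10. The macrophage and satellite cell sums of NC3 given above moved with its values, and their part in them was not tested.

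**Figure D3:**
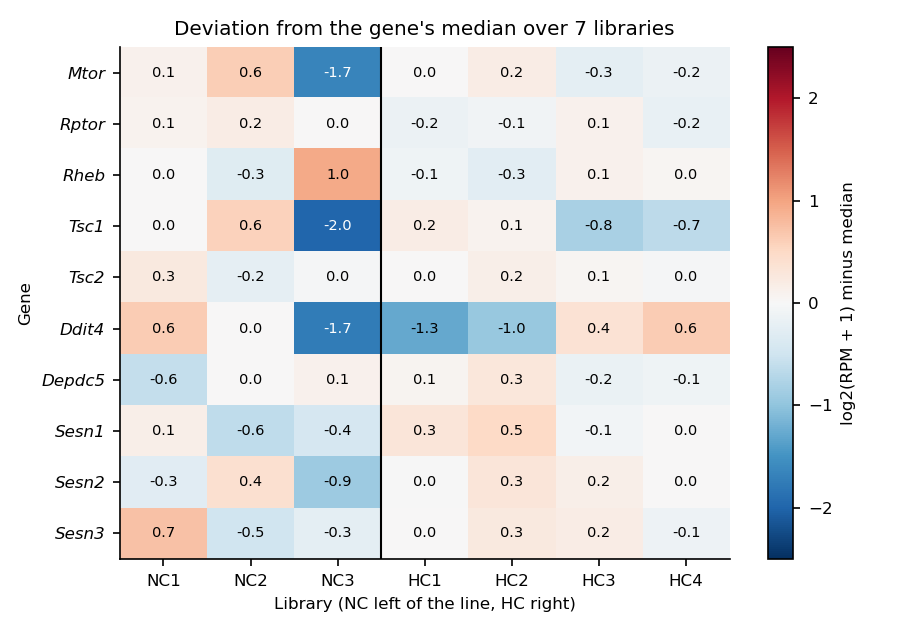
Deviation of each gene in each library from its median over the 7 libraries, in log2(RPM + 1), with NC left of the line and HC right. The darkest cells are those of Mtor, Tsc1 and Ddit4 in NC3, and Ddit4 and Tsc1 move in opposite directions between HC1 and HC2 on the left and HC3 and HC4 on the right.

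The genes whose levels ran most like that of Mtor over the 7 libraries, among 8228 genes whose mean reached 10 RPM, were Ric8a, Fam219a and Chpf2 (Pearson r 0.998, 0.994 and 0.993). Ric8a, at 57.6, 79.0 and 20.8 RPM in NC and 53.6, 61.0, 50.1 and 51.9 RPM in HC, shared with Mtor the peak in NC2 and the low in NC3. For Sesn1 they were Phkb, Pccb and Zfp65 (r 0.981, 0.97 and 0.96), and for Rptor Clcn6, Dusp16 and Mrs2 (r 0.985, 0.978 and 0.959). With 7 libraries and so many genes searched, such values are a description only, and all points of a library share its depth and cell mixture.

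The wider pathway was covered by 9 lists with 72 measured genes, the 10 included. Of these, 42 were higher and 30 lower in HC (median log2 fold change 0.09). On the same scale 7765 of the 12504 genes at 1 RPM or more were higher and 4739 lower (median 0.16). The splits given here for lists of genes were not repeated on other scalings. Limma called 3 of the 72, Kptn higher and Mios and Pdcd4 lower, 6 were at an unadjusted p under 0.05 and 0 after adjustment, the lowest adjusted p being 0.712. The groups did not overlap for 7 of the 72. The rates for all genes were 2.57% called, 4.75% called at 1 RPM or more, and 7.72% without overlap, so both counts were near the background. The number called was 13 without NC1, where 15.4% of all genes at 1 RPM or more were called, 10 without NC2 (9.37%) and 5 without NC3 (4.65%), and DESeq2 called 7 (9.41%). Mios and Pdcd4 were called in all 17 fits. Kptn lost its call in 8 of the 16 alternatives: without NC3, HC2 or HC4, with 5 RPM added, with quantile normalization, in edgeR with and without a filter, and with the replicate number as a block.

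**Figure D4:**
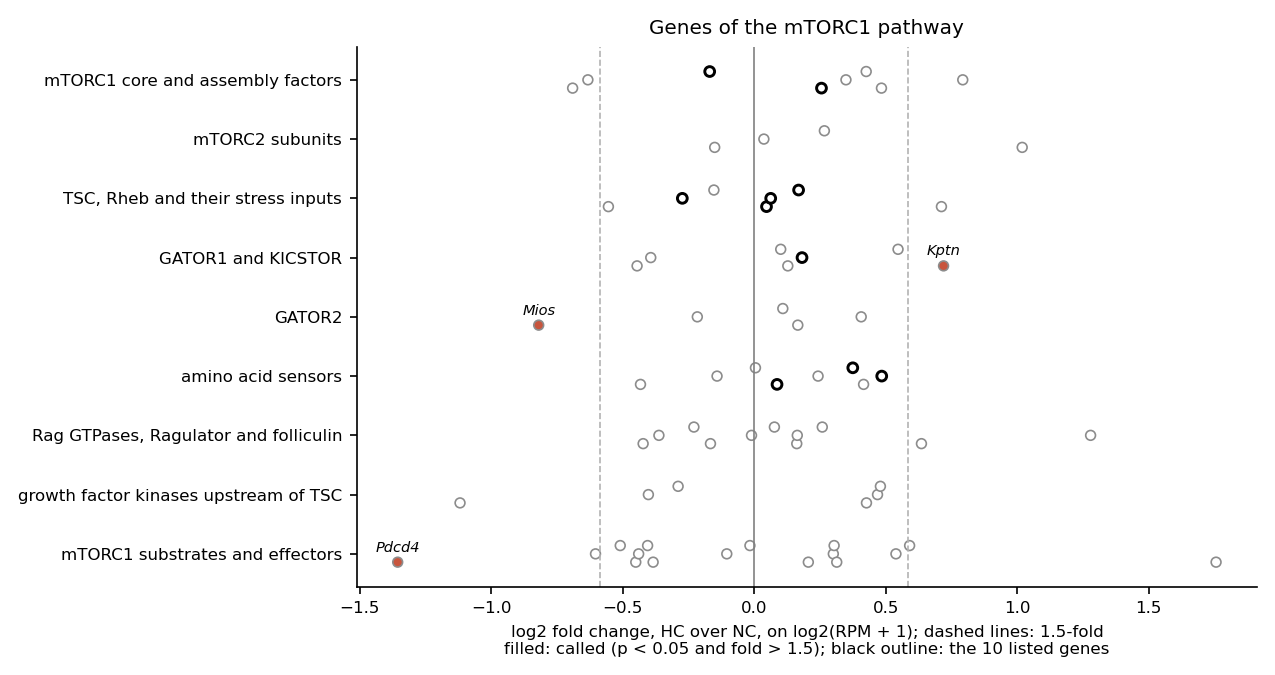
Log2 fold change of HC over NC on log2(RPM + 1) for the 72 pathway genes, 1 point a gene, by list, with called genes filled and named, the 10 genes outlined in black and dashed lines at 1.5-fold. The 3 filled points are Kptn above the upper line and Mios and Pdcd4 below the lower one, and the points of each list lie on both sides of 0.

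Among the 8 genes of the complex and its assembly factors, 5 were higher and 3 lower and 0 were called, with 1 at an unadjusted p under 0.05. That gene was Tti1, which helps to fold and assemble mTOR, at 15.7, 15.0 and 14.2 RPM in NC and 19.5, 18.8, 24.0 and 19.9 RPM in HC, without overlap. Its log2 fold change was 0.43 (standard error 0.09, limma, adjusted p = 0.712), under the 1.5-fold needed for a call. The unadjusted p of Tti1 was 0.123 when genes below 1 RPM were left out, 0.315 with quantile normalization and 0.291 in edgeR with a filter. Deptor, an inhibitor of mTOR named after its values were seen, was at 67.8, 58.0 and 28.6 RPM in NC and 22.8, 29.8, 37.5 and 29.9 RPM in HC, a log2 fold change of -0.69 (standard error 0.34, limma, unadjusted p = 0.0917, adjusted p = 0.915). HC1 alone was below every NC library. Deptor was called lower when the libraries were scaled by median of ratios (-0.83) or quantiles (-0.84), in edgeR (-0.82), in DESeq2 (-0.85) and without NC3 (-1.06). Of the 4 mTORC2 subunits, 0 were called, and Prr5l had the smallest p, with a log2 fold change of 1.02 (standard error 0.45, limma, adjusted p = 0.915), which was 1.23 and called without HC4, and also called when genes below 1 RPM were left out and in DESeq2 (1.09). Of the 7 genes of the TSC and Rheb list 0 were called, and the smallest p was that of Rhebl1, the close relative of Rheb, at -0.55 (standard error 0.45, limma, adjusted p = 0.915), which was -1.07 and called without NC3.

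GATOR1, the complex of Depdc5, and KICSTOR, which holds GATOR1 at the lysosome, had 7 measured genes, of which 5 were higher and 2 lower, 1 was called and 3 did not overlap (4.75% and 7.72% of all genes at 1 RPM or more). The called gene was the KICSTOR subunit Kptn, at 7.49, 9.02 and 4.34 RPM in NC and 10.5, 12.7, 11.1 and 12.5 RPM in HC, with every HC library above every NC library. Its log2 fold change was 0.72 (standard error 0.23, limma, unadjusted p = 0.0215, adjusted p = 0.915). It fell to 0.46 and was no longer called without NC3. The other genes without overlap, named here after their values were seen, were the GATOR1 subunit Nprl2, higher in HC at 0.55, and the KICSTOR gene BC048403 (Kics2), lower at -0.44. Neither was called, and Nprl2 was called without NC1 (0.62), NC2 (0.67) or HC3 (0.63) and with 0.1 RPM added (0.62). In other fits Nprl2 was weaker, with an unadjusted p of 0.0877 (limma, filter at 1 RPM), 0.445 (limma, quantile normalization), 0.176 (edgeR with a filter) and 0.13 (DESeq2). For BC048403 it was 0.139 with the filter and 0.151 with median of ratios (limma). In GATOR2, the complex that opposes GATOR1, 3 of 5 genes were higher and 2 lower, and 1 was called, against the same 4.75%. Mios was at 19.7, 12.998 and 22.9 RPM in NC and 8.77, 8.84, 12.0 and 9.89 RPM in HC, a log2 fold change of -0.82 (standard error 0.21, limma, unadjusted p = 0.01, adjusted p = 0.828). Every HC library was below every NC library, and HC3 and NC2 were the closest. Leaving out 1 library gave -1.04 to -0.66.

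The 8 amino acid sensors, the sestrins included, were higher in 6 cases and lower in 2, and 0 were called. Bmt2, which encodes the S-adenosylmethionine sensor SAMTOR, had the smallest p, at -0.43 (standard error 0.21, limma, adjusted p = 0.915). Among 11 measured Rag, Ragulator and folliculin genes 6 were higher, 5 lower and 0 called, and the smallest p was that of Rraga, which encodes RagA, at -0.36 (standard error 0.22, limma, adjusted p = 0.915), which was -0.59 and called without NC2. Of the 6 growth factor kinases upstream of TSC, 3 were higher, 3 lower and 0 called.

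The substrates and effectors of mTORC1 numbered 16 measured genes, 7 higher and 9 lower, with 1 called (4.75% of all genes at 1 RPM or more were called). Pdcd4, an inhibitor of translation that is degraded after S6 kinase marks it, was at 100.8, 61.4 and 129.5 RPM in NC and 26.0, 30.0, 48.7 and 42.6 RPM in HC. Every HC library was below every NC library. The log2 fold change was -1.36 (standard error 0.34, limma, unadjusted p = 0.0086, adjusted p = 0.827), and it ran from -1.65 to -1.12 when 1 library was left out. The S6 kinase gene Rps6kb1 (-0.45), the translation repressor Eif4ebp1 (-0.10) and the autophagy kinase Ulk1 (0.59), named after their values were seen, were not called, and Rps6kb1 was called without NC2 (-0.69). NC3 was far from the rest for some genes of this list. Larp1 was at 1.79 RPM in NC3 and 128.7 to 366.5 RPM elsewhere, and Ulk1 at 3.03 RPM in NC3 and 37.4 to 79.7 RPM elsewhere. Without NC3 Ulk1 turned to -0.82 and was called lower (limma, unadjusted p = 0.00654, adjusted p = 0.351), and Larp1 turned from 1.76 to -0.49.

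Lists of genes that respond with the same inputs were read beside the sestrins and Ddit4. Of 20 measured genes of the ATF4 response to amino acid shortage, which includes factors that act on Sesn2, 13 were higher and 7 lower in HC, and 0 were called. The smallest p was that of Mthfd2, a mitochondrial folate enzyme, at 1.07 (standard error 0.64, limma, adjusted p = 0.915), which was 1.71 and called without NC1. Of 10 measured glucocorticoid-induced genes, read beside Ddit4, 2 were higher and 8 lower, with a median of -0.55 and 1 called (4.75% of all genes at 1 RPM or more were called). That was the metallothionein gene Mt1, at 652.6, 1165 and 1113 RPM in NC and 482.2, 426.6, 561.8 and 526.6 RPM in HC, a log2 fold change of -0.93 (standard error 0.23, limma, unadjusted p = 0.00882, adjusted p = 0.827). Metallothioneins also respond to metals and oxidants.

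Of 7 FoxO targets, read beside Sesn1 and Sesn3, 2 were higher and 5 lower, and 2 were called, where 4.75% of all genes at 1 RPM or more were called. Ccng2, an atypical cyclin linked to cell cycle arrest, was at 40.8, 77.8 and 50.7 RPM in NC and 27.7, 26.5, 19.7 and 18.8 RPM in HC, a log2 fold change of -1.22 (standard error 0.27, limma, unadjusted p = 0.00457, adjusted p = 0.729). Irs2, an adaptor of the insulin receptor, was at 51.2, 104.5 and 52.3 RPM in NC and 36.7, 40.1, 41.6 and 33.9 RPM in HC, a log2 fold change of -0.77 (standard error 0.28, limma, adjusted p = 0.915). Its call was lost without NC2, where it was -0.44, without any 1 HC library, and with the replicate number as a block (-0.72). Of 11 p53 targets, read beside Sesn1, 9 were higher and 2 lower with a median of 0.46, and 1 was called, against the same 4.75%. Over all genes at 1 RPM or more, 7765 were higher and 4739 lower, with a median of 0.16 that was -0.067 without NC3. Zmat3, a zinc finger RNA-binding gene, was at 23.7, 14.5 and 19.5 RPM in NC and 32.4, 38.2, 34.5 and 32.9 RPM in HC, a log2 fold change of 0.83 (standard error 0.17, limma, unadjusted p = 0.0031, adjusted p = 0.686), with every HC library above every NC library.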

How the data were processed

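RNA of sorted Pax7-GFP+ cells was amplified with the Ion AmpliSeq mouse transcriptome panel, which reads 1 amplicon a gene, so levels of different genes are not on 1 scale and marker sums are read only between libraries. The authors deposited 1 table of RPM for 7 libraries and used the Transcriptome Analysis Console; neither aligner nor build is given in the sources used here. No other column of sample values was present (0). Because values were whole multiples of 1 read, reads were recovered for 100% of values (tolerance 0.05 reads). Groups were taken from the labels. The comparison was fitted across all genes with limma 3.58.1 (R 4.3.3) on log2(RPM + 1), with no filter, and a gene counted as called at p under 0.05 and a fold change above 1.5, as in the study, with Benjamini-Hochberg adjustment beside them. Only the limma fit was tested on simulated data, with equal dispersion in both groups, whereas here most genes spread more in NC. On the recovered reads, edgeR 4.0.16 called 802 genes and DESeq2 1.42.0 called 1304, against 615 by limma. Fold changes on log2(RPM + 1) can understate those of low genes. Where counts of 3 reads are taken as the floor, it lay between 0.128 and 0.207 RPM.

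The 10 genes, the gene lists and the tests were chosen with earlier results of these data known. Named are the 10 genes, the called genes of each list (at most 4) or otherwise its gene with the smallest p, and 3 genes most like Mtor, Sesn1 and Rptor; others are said to be named after their values were seen. Some results of listed genes are not reported here. The listed genes Lamtor5, Eif4ebp3, Rps6, Phgdh, Mt2 and Cd79a were not found under these symbols. Promoter sequences are from RefSeq. Alternatives were pseudocounts of 0.1 and 5 RPM, a minimum mean of 1 RPM, median-of-ratios and quantile scaling, edgeR with TMM with and without a filter, DESeq2, leaving out each library and the replicate number as a block.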

Additional observations from a re-analysis of the deposited data

How the results depend on the processing

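Of 159 refits of the 10 genes, 29 changed direction and 2 gained a call. The value of Ddit4 was -0.07 when scaled by median of ratios, -0.14 with quantile normalization, -0.005 and -0.04 in edgeR with and without a filter, -0.04 in DESeq2, and -0.62 to 0.57 without 1 library. Mtor was at -0.005 and -0.02 in edgeR with and without a filter, -0.03 in DESeq2 and -0.41 to 0.72 without 1 library. Tsc1 was at -0.18 with quantile normalization, -0.08 and -0.09 in edgeR, -0.10 in DESeq2 and -0.59 to 0.69 without 1 library. Tsc2 was at -0.09 when scaled by median of ratios, -0.08 and -0.05 in edgeR, -0.12 in DESeq2 and -0.07 to 0.17 without 1 library. Depdc5 was at -0.02 in edgeR with a filter, -0.06 in DESeq2 and -0.03 to 0.32 without 1 library. Without 1 library, Rheb ran from -0.53 to 0.09 and Sesn3 from -0.16 to 0.46. The cause of these changes was not tested. Rptor (-0.34 to -0.12), Sesn1 (0.32 to 0.71) and Sesn2 (0.04 to 0.71) kept their direction in all 16 alternatives. Sesn3 could not be tested under the filter at a mean of 1 RPM.

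Without 1 library, calls among the 10 genes ranged from 0 to 1, among pathway genes from 2 to 13 and among all genes from 376 to 1990. Pathway calls were 5 with the filter at 1 RPM and 7 in DESeq2. Calls among all genes were 1049 in edgeR without a filter and 1304 in DESeq2, where 29 passed adjustment, against 0 in limma with 1114 at an unadjusted p under 0.05. Higher and lower calls were 343 and 272 in limma, 336 and 357 with quantile normalization, and 294 and 508 in edgeR with a filter. The other 20 named genes that were refitted changed direction in 6 of 320 refits, lost a call in 14 and gained one in the same direction in 17. Ulk1 was at -0.18 and -0.21 in edgeR with and without a filter, -0.21 in DESeq2 and -0.82 to 1.34 without 1 library. Without 1 library, Larp1 ran from -0.49 to 3.03 and Eif4ebp1 from -0.39 to 0.24.

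With the replicate number as a block, 0 of the 10 genes, 2 pathway genes and 598 of all genes were called, and Ddit4 was at -0.25. That fit also leaves out HC4, which has no NC library of its number, and without HC4 alone Ddit4 was at -0.25 too. Over genes, the deviations of same-numbered libraries correlated at -0.349 for number 1, 0.503 for 2 and -0.044 for 3, and NC2 correlated with HC1 at 0.452. Since not every pair was above 0.1, the libraries are taken to share only a number. There were 3 and 4 libraries a group and an NC spread of several fold. At that spread, the observed fold of RPM + 1 had to pass about 2.62 in Mtor (1.44 without NC3) or 3.85 in Ddit4 for its interval to leave 1. These values are not limits on true differences, which could be missed when larger. RPM holds no protein or phosphorylation state of mTORC1.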
